A study of Caenorhabditis elegans with 2 samples.

Results

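A set of 10 core genes of Notch signalling was examined for peaks of the tagged transcription factor TBX-2 in embryos of the nematode Caenorhabditis elegans. The 10 genes were taken by their symbols in the WBcel235 annotation, from 19973 nuclear protein-coding genes, and are the receptors glp-1 and lin-12, the ligands lag-2 and apx-1, the processing genes sup-17, sel-12 and aph-1, and the nuclear genes lag-1, sel-8 and ref-1. A peak was given to a gene when its summit lay between 3 kb upstream of the gene and the gene's end, a stretch called the window here. The assay was chromatin immunoprecipitation with sequencing (ChIP-seq). It used strain OP159, genotype unc-119(ed3) III; wgIs159, in which the integrated transgene wgIs159 encodes TBX-2 with GFP and FLAG fused to its C-terminus. Late embryos of hermaphrodites were taken 3.5 h after synchronization by egg bleaching, whole organisms were used, and an antibody against GFP was applied. There was 1 group with 2 biological replicates and no second condition, so values are given per replicate and no test between conditions was possible.

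Notch is a receptor held in the cell surface that is activated by ligands of the DSL family on a neighbouring cell. An ADAM protease first cleaves the receptor outside the membrane, gamma-secretase then cuts it within the membrane, and the freed intracellular domain enters the nucleus. There it joins the DNA-binding CSL protein and a Mastermind-type co-activator and switches on target genes. In the early C. elegans embryo, GLP-1 signalling is known for inducing blastomere fates, including those that give rise to part of the pharynx, and TBX-2 is known for its role in making anterior pharyngeal muscle.

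The authors deposited 4 peak lists on the ce11 build, which is the WBcel235 sequence. The relaxed lists mix peaks with background and held 23800 intervals in replicate 1, 23216 in replicate 2 and 25747 when the reads of both were pooled. The optimal set held 3053 peaks kept by the authors' threshold on irreproducibility, with signals from 81.6 to 2535.7 and a median of 126. Which lists that threshold compared is not given in the sources used here. Signal is a value the authors gave each peak, and rank 1 is the strongest peak of a list. The pooled list and each replicate list have their own scale. The optimal peaks at the 10 genes had the same signal and rank in the optimal set and the pooled list. Over the nuclear genome 3034 pooled peaks had a rank within 3053, and the optimal set held 3034 nuclear peaks. An optimal peak was thus not always among the strongest of each replicate. The 3053 strongest peaks of a replicate are called its top list here. At the tagged gene tbx-2 the optimal peak ranked 20, with ranks of 23 and 21 in replicates 1 and 2. The transgene also holds tbx-2 sequence, and whether that affects these ranks was not tested. Read depth is unknown, and no list from an untagged strain was used, so binding of TBX-2 and a gathering of reads at promoters whatever is tagged cannot be told apart.

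Of the 10 Notch genes, 5 had an optimal summit in the window, against 17.7% of all protein-coding genes. They were the ligand gene apx-1, the protease gene sup-17, the presenilin gene sel-12, the CSL gene lag-1 and the co-activator gene sel-8, with 7 peaks between them. Neither receptor gene had one, and lag-2, aph-1 and ref-1 had none. The sequences around 6 of these summits, and around the strongest lag-2 summit of the pooled list, are shown because they are the DNA under the peaks that the values below describe. Each is the summit base with 100 bases to each side, from RefSeq sequence on WBcel235 (ce11), read 5′ to 3′ on the strand of the gene. Capitals mark, on either strand, the T-box core GGTGT, the longer T-box site GGTGTGA that contains it, the LAG-1 site as ATGGGAA or with a different first base as GTGGGAA, and the shorter LAG-1 core TGGGAA that both forms contain.
apx-1, chrV:3218723-3218923, plus strand: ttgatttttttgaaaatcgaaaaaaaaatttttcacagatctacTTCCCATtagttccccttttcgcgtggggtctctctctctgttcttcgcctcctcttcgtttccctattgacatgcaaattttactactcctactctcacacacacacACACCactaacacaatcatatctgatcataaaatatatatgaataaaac
sel-12, chrX:915661-915861, plus strand: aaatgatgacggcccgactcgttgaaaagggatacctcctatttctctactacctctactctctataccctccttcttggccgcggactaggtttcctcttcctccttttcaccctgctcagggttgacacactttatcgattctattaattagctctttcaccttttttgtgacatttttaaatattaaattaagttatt
lag-1 in intron 1, chrIV:6097136-6097336, plus strand: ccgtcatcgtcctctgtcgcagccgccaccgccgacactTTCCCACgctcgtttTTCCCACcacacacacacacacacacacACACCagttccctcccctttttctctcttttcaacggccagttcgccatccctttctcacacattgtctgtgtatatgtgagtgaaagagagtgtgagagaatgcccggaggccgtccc
lag-1 downstream, chrIV:6104386-6104586, plus strand: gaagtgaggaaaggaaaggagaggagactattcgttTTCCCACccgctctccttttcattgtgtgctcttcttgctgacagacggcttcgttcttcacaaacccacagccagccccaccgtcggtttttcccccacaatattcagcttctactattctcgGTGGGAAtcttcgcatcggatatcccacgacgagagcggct
sel-8 distal in intron 1, chrIII:3620729-3620929, minus strand: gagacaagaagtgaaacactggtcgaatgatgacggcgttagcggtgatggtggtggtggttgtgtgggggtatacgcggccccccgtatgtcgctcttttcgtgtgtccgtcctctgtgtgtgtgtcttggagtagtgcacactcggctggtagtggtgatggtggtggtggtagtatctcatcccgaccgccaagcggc
sel-8 proximal in intron 1, chrIII:3623816-3624016, minus strand: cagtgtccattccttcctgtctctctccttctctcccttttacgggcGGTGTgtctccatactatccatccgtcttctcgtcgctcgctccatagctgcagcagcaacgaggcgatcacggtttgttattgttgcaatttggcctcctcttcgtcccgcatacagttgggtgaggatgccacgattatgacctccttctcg
lag-2, chrV:3187949-3188149, plus strand: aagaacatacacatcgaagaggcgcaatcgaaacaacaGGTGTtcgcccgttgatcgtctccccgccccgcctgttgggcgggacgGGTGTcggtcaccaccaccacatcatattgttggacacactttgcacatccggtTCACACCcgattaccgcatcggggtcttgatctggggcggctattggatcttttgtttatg

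**Figure D1:**
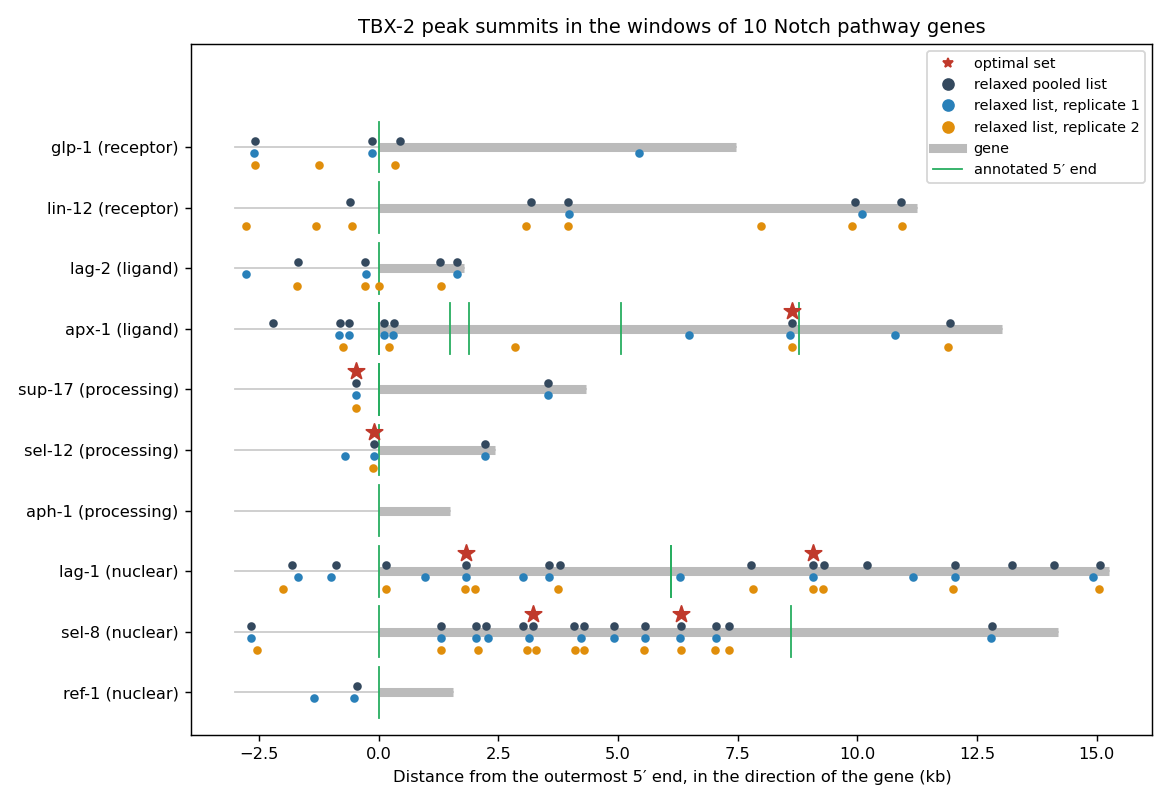
Positions of all summits in the windows of the 10 genes, as distance in kb from the outermost 5′ end (x axis), with 1 row per gene (y axis), stars for the optimal set, dots for the relaxed lists, grey bars for genes and green lines for annotated 5′ ends. The 7 optimal summits sit at 5 genes, close to a 5′ end in apx-1, sup-17 and sel-12 and deeper inside lag-1 and sel-8, and the row of aph-1 is empty.

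The 2 receptor genes had peaks in the relaxed lists only, and the replicates gave them different weight. glp-1 (WBGene00001609, chromosome III 9092241 to 9099698, plus strand) encodes the Notch receptor known from the germline and the early embryo. Its window held 3 summits in each of the pooled, replicate 1 and replicate 2 lists. The strongest pooled summit lay at -2594 bp from the 5′ end (negative distances are upstream; 9089429 to 9089864) with a signal of 49.6 and rank 6865. The peak over it ranked 15824 in replicate 1, with a signal of 20.8, and 4875 in replicate 2, with a signal of 27.4. This summit was nearer to mrpl-44 and mccc-2, from whose 5′ ends it lay at -272 bp, than to glp-1. Closer to the glp-1 start, a pooled summit at -149 bp ranked 25667, near the bottom of the list, and matched a replicate 1 peak of rank 15309 at -148 bp. Inside intron 1, at 445 bp, another pooled summit ranked 20596.

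lin-12 (WBGene00003001, chromosome III 9060221 to 9071472, minus strand) encodes the second Notch receptor, known from vulval and other cell fates. Its pooled window held 5 summits, of which the strongest lay in intron 3 (9067305 to 9067740, at 3949 bp, signal 46.6, rank 7646) and ranked 10631 in replicate 1 and 8435 in replicate 2. A pooled summit at -608 bp ranked 9032. In replicate 2 a peak at -552 bp had rank 3750, a signal of 31.9 and a −log10 q-value of 2.60, while no upstream lin-12 summit was listed in replicate 1. Replicate 2 listed 8 summits in this window and replicate 1 listed 2, and of the 5 pooled summits 2 were met in both replicates. For both receptors, then, the strongest peaks ranked below the last optimal rank in each replicate.

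The ligand genes differed from each other in rank. lag-2 (WBGene00002246, chromosome V 3188343 to 3190115, plus strand) encodes a DSL ligand. Its strongest pooled summit lay at -294 bp (3187831 to 3188266) with a signal of 44.8 and rank 8160. It ranked 9514 in replicate 1, with a signal of 27.1, and 11944 in replicate 2, with a signal of 16.9. This weak peak was met in both replicates at nearly the same place: the summits lay at -256 bp in replicate 1 and -290 bp in replicate 2. The other pooled summits of lag-2 ranked 14838, 20301 and 21842.

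apx-1 (WBGene00000168, chromosome V 3210196 to 3223221, plus strand) encodes the DSL ligand known from the early embryo and held one of the strongest peaks among the 10 genes. The optimal peak (3218605 to 3219040) had a signal of 188 and rank 701. Its peak in replicate 1 had a signal of 107 and rank 697, and its peak in replicate 2 had a signal of 74.6 and rank 873, so both replicates placed it in their top lists. The summit lay 8627 bp inside the gene measured from the outermost 5′ end, but at -147 bp from the 5′ end of the short transcript K08D9.3e.1. In K08D9.3a.1, a long transcript, the same position lies in intron 5, which is 2144 bp long. The next gene by distance was a pseudogene, with its 5′ end 8235 bp away. The outer start of apx-1 carried weaker peaks. A pooled summit 112 bp downstream of a 5′ end had a signal of 68.6 and rank 3992, with ranks of 3878 and 5367 in replicates 1 and 2. Another at -811 bp had a signal of 66.1 and rank 4234, with ranks of 3889 and 6974.

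**Figure D2:**
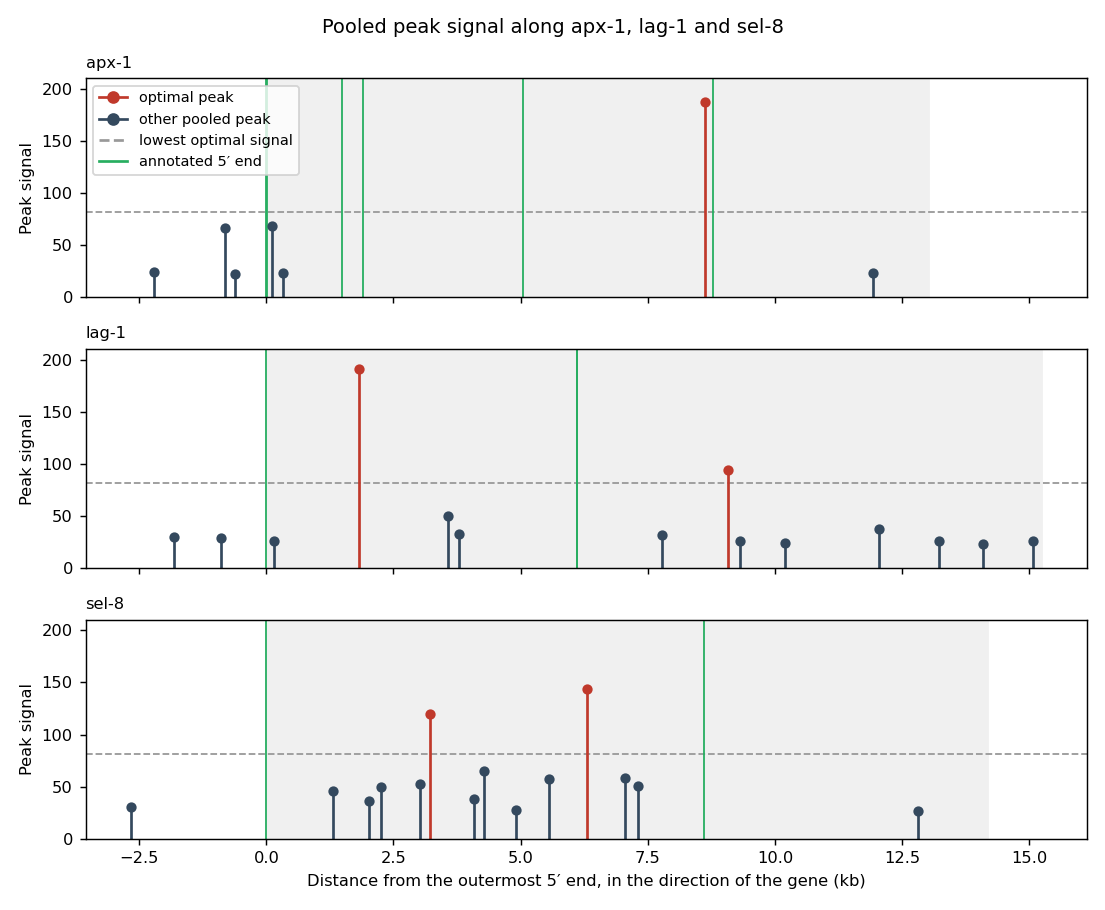
Pooled peak signal (y axis, the authors' value) along apx-1, lag-1 and sel-8 against distance in kb from the outermost 5′ end (x axis), with optimal peaks in red, other pooled peaks in dark blue, gene bodies shaded and the lowest optimal signal of 81.6 as a dashed line. The apx-1 peak of 188 stands at the start of a short transcript, lag-1 has peaks of 191 and 94.1, and sel-8 has a row of peaks in its first intron with the highest at 144 and 119.7.

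Of the processing genes, sup-17 and sel-12 had a peak just upstream and aph-1 had none. sup-17 (WBGene00006324, chromosome I 8792964 to 8797295, plus strand) encodes the ADAM10-type metalloprotease that cleaves the receptor outside the membrane. Its optimal peak (8792280 to 8792715) lay at -466 bp with a signal of 92.2 and rank 2525. The peak ranked 1992 in replicate 1, with a signal of 63.0, and 3678 in replicate 2, with a signal of 32.4, so it was in the top list of replicate 1 and outside that of replicate 2. The summit lay inside DY3.11, an annotated noncoding RNA whose 5′ end was 25 bp away, nearer than that of sup-17.

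sel-12 (WBGene00004769, chromosome X 915867 to 918290, plus strand) encodes a presenilin, the catalytic part of gamma-secretase. Its optimal peak (915543 to 915978) lay at -106 bp with a signal of 99.3 and rank 2232, and sel-12 had the nearest 5′ end. The peak ranked 2620 in replicate 1, with a signal of 53.8, and 1770 in replicate 2, with a signal of 50.7. Both ranks fell inside the top lists, and the summits of the replicates lay 1 and 9 bp from the pooled summit. aph-1 (WBGene00000147, chromosome I 9232068 to 9233560, minus strand) encodes another gamma-secretase subunit, and its window had no summit in any of the 4 lists. The same held for 5503 protein-coding genes (27.6%). Of the 31-base words in the aph-1 window, 99.8% occur once in the genome, against a median of 98.6% over the windows of all protein-coding genes.

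The nuclear genes lag-1 and sel-8 held 4 of the 7 optimal peaks, none of them within 1 kb of a 5′ end of lag-1 or sel-8. lag-1 (WBGene00002245, chromosome IV 6095407 to 6110655, plus strand) encodes the CSL protein that brings the Notch complex to DNA. The stronger optimal peak (6097129 to 6097313) lay in the first intron of the long transcripts, which is 5917 bp long, 1829 bp downstream of their 5′ end. It had a signal of 191 and rank 674, the highest rank among the 10 genes. Replicate 1 ranked it 1300, with a signal of 79.9, and replicate 2 ranked it 352, with a signal of 109. Replicate 2 also listed a second summit in this place, at 2008 bp, with rank 2284. The noncoding RNA K08B4.41 had a nearer 5′ end, at 1193 bp.

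The second optimal lag-1 peak (6104268 to 6104703) was weaker and lay 2967 bp downstream of the inner 5′ ends. It had a signal of 94.1 and rank 2438, with rank 3476 and a signal of 45.9 in replicate 1 and rank 2342 and a signal of 42.6 in replicate 2. It was thus outside the top list of replicate 1. The place of this summit depends on the transcript: it falls in coding exon 3 of K08B4.1d.1 and in an intron of 3191 bp in the other 3 annotated transcripts. The 5′ end of the noncoding RNA K08B4.42 was 190 bp away. In all, 14 pooled summits lay in the lag-1 window, with 8 met in both replicates, and the strongest within 1 kb of a 5′ end ranked 18062.

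sel-8 (WBGene00004765, chromosome III 3612951 to 3627142, minus strand) encodes the Mastermind-type co-activator of the LAG-1 complex, and its 2 optimal peaks lay in 1 intron. The stronger (3620611 to 3621046) had a signal of 144 and rank 1195, with rank 1113 and a signal of 86.5 in replicate 1 and rank 1368 and a signal of 58.5 in replicate 2. It lay at -2298 bp from the inner 5′ end, that of C32A3.1b.1, and 6313 bp inside the gene from the outer one. The weaker (3623698 to 3624133) had a signal of 119.7 and rank 1665, with rank 1722 and a signal of 68.3 in replicate 1 and rank 1616 and a signal of 53.2 in replicate 2. It lay 3226 bp downstream of the outer 5′ end. Both peaks were in both top lists. The noncoding RNA C32A3.7 had a nearer 5′ end to each than sel-8, with the summits at -691 bp and 2396 bp from it.

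Peaks were crowded along this intron. The first intron of sel-8, in C32A3.1a.1, is 8533 bp long and held 12 of the gene's 14 pooled summits, or 14.1 per 10 kb, against 2.57 over the nuclear genome. It was singled out after its values were seen. Replicate 1 listed 9 summits there and replicate 2 listed 10. Some pooled intervals there overlap, such as 3623698 to 3624133 and 3623901 to 3624336. The 12 summits are thus not 12 separate stretches. Besides the optimal peaks, pooled peaks there ranked 4387, 5193 and 5379, with signals of 64.7, 58.5 and 57.3. Of the gene's 14 pooled summits 12 were met in both replicates and 2 in replicate 1 only. Where pooled peaks overlap, the same replicate peak could meet more than 1 of them. Of the 19973 protein-coding genes, 86 had 14 or more pooled summits in their windows, and lag-1 and sel-8 were among them. The windows of lag-1 and sel-8 are long, at 18249 and 17192 bp, against a median of 5027 bp over all genes. The first intron of lag-1 held 4 pooled summits, or 6.76 per 10 kb. No pooled summit lay within 1 kb of either sel-8 5′ end. The outer start lies 91 bp from the neighbouring gene mrps-31, on the same strand.

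ref-1 (WBGene00004334, chromosome II 10218471 to 10220022, plus strand) encodes a bHLH protein and is known as a target of Notch signalling in the embryo. Its single pooled summit lay at -459 bp (10217794 to 10218229) with a signal of 54.0 and rank 5949. In replicate 1 it ranked 3206, just outside the top list, with a signal of 47.9 and a −log10 q-value of 2.29. Replicate 2 had no summit in the ref-1 window at all. The pooled summit lay inside the annotated noncoding RNA T01E8.10.

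**Figure D3:**
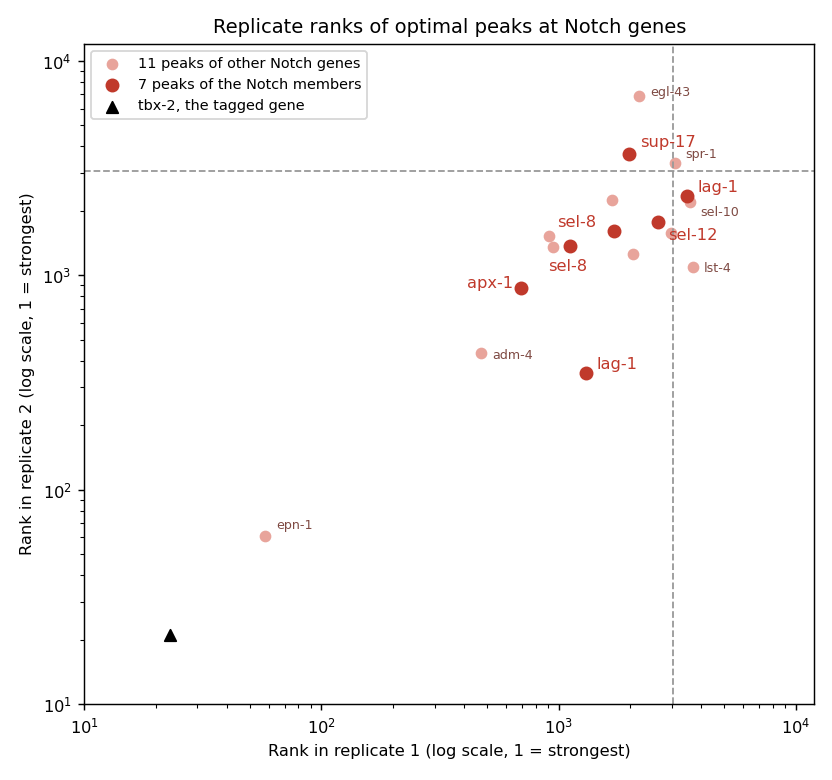
Rank in replicate 1 (x axis, log scale) against rank in replicate 2 (y axis, log scale) of the 7 optimal peaks of the Notch members, the 11 of other Notch genes and that of tbx-2, with dashed lines at rank 3053, the end of the top lists. Of the 7 member peaks, 5 lie inside both lines, while sup-17 passes the line in replicate 2 and the weaker lag-1 peak in replicate 1.

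The replicates listed all 7 optimal member peaks, and 5 of the 7 were in both top lists. In the whole optimal set 76.3% were in both top lists. The peaks outside were that of sup-17 in replicate 2 and the weaker lag-1 peak in replicate 1. Summits in the replicates lay 1 to 80 bp from the pooled summit, with the widest gaps, of 80 and 63 bp, at the weaker sel-8 peak. Within the top list of replicate 1, 5 of the 10 genes had a summit in the window, against 17.6% of all genes. Within that of replicate 2 there were 4 of 10, against 17.7%. Of the 52 pooled summits in the 10 windows 33 were met in both replicates (63.5%), and of all nuclear pooled summits 56.5% were.

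**Figure D4:**
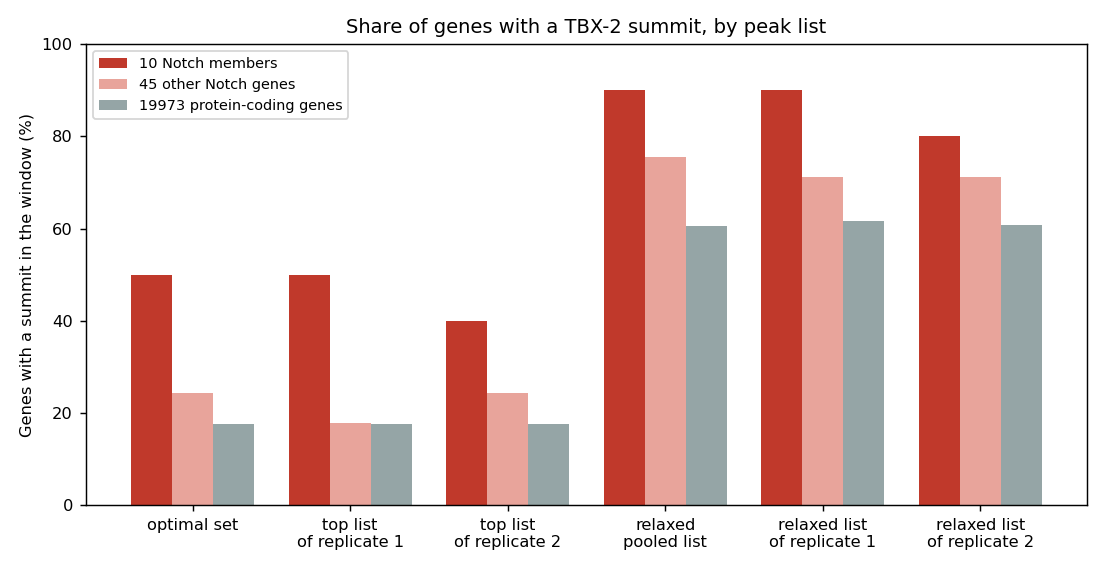
Share of genes with a summit in the window (y axis, percent, from 0) in each of 6 lists (x axis), for the 10 Notch members, the 45 other Notch genes and all 19973 protein-coding genes. The members stand at 50% against 17.7% in the optimal set and at 90% against 60.6% in the relaxed pooled list, and the other Notch genes stand at 24.4% and 75.6%.

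How many genes are counted depends on the list and on the reach. In the relaxed pooled list 9 of the 10 genes had a summit in the window, against 60.6% of all genes. It was 9 of 10 in replicate 1, against 61.7%, and 8 of 10 in replicate 2, against 60.8%. Restricted to summits within 1 kb of a 5′ end, 3 of 10 genes (apx-1, sup-17 and sel-12) had an optimal peak, against 11.5%. In the pooled list that count was 8 of 10, against 44.5%. In the top list of replicate 1 it was 3 of 10, against 11.2%, and in that of replicate 2 it was 2 of 10, against 11.3%. The windows of these genes are long, with a median of 8895 bp against 5027 bp over all genes, and a longer window can hold more peaks. Per 10 kb of window there were 0.681 optimal summits in the 10 windows and 0.303 over the nuclear genome, and 5.06 and 2.57 pooled ones. The nuclear genome includes sequence outside gene windows, so this does not compare the 10 windows with those of other genes. With 10 genes chosen with results known, these counts are descriptions.

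The edge of the window mattered for no optimal peak. No optimal summit lay within 2 kb beyond either end of any window. The nearest pooled summits outside were 8 bp past the upstream edge at sel-12 (rank 14865), 63 bp at ref-1 (rank 20289) and 301 bp at sup-17 (rank 14777). The farthest pooled summits inside on the upstream side included those of glp-1 at -2594 bp and of sel-8 at -2660 bp (rank 16053), the latter inside mrps-31.

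The DNA under the peaks was searched for short motifs. Each motif was looked for on both strands within 50 bp of the summit, and the share of all 3034 nuclear optimal summits with the same match is given. The T-box site GGTGTGA lay under 0 of the 7 optimal member summits, against 1.32%, and the core GGTGT under 1, that of lag-1 in intron 1, against 20.8%. The LAG-1 site, ATGGGAA or GTGGGAA, lay under the same lag-1 summit only, against 3.23%, and its shorter form TGGGAA likewise, against 4.94%. The GA repeat GAGAGAGA lay at apx-1, against 8.70%, and neither CTGCGTCT (10.3%) nor the GC-box GGGCGG (7.81%) was found under any of the 7.

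Within 100 bp of the summit, the stretch printed above, LAG-1 sites were found at 3 of the 7 summits, those of apx-1 and both of lag-1, against 6.43% of all. Each of the lag-1 sequences holds 2 copies of GTGGGAA, and the apx-1 sequence holds 1 copy of ATGGGAA on the opposite strand, 50 to 56 bp before the summit. The core GGTGT was found in 3, against 33.0%, at apx-1, at lag-1 in intron 1 and at the proximal sel-8 peak. A match is a run of letters and does not show that a protein was bound there. Of the sequences shown, that of the weak lag-2 peak alone holds the full site GGTGTGA, with its nearest base 40 bp past the summit, together with 2 more copies of GGTGT. Under pooled peaks, within 50 bp of the summit, the site GGTGTGA was found at 3 of the 52 member summits (5.77%), against 1.35% of all nuclear pooled summits. Besides lag-2 these were at apx-1 and lag-1, with ranks of 24420 and 6832. In the same search the LAG-1 site was found at 3 of 52 (5.77%), against 3.50%, and TGGGAA at 4 (7.69%), against 6.36%. GGTGT was found at 11 (21.2%), against 15.7%, and the GC-box at 5 (9.62%), against 4.34%. The GA repeat was found at 2 (3.85%), against 3.41%, and CTGCGTCT at 1 (1.92%), against 3.21%.

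The region from 250 bases before to 50 bases after the outermost 5′ end was also searched. There the GC-box lay at 4 of the 10 genes, glp-1, lag-2, apx-1 and sel-12, against 7.83% of all protein-coding genes. The LAG-1 site was at 0 of 10, against 10.1%, and the T-box site was at 0 of 10, against 2.30%. The core GGTGT was at glp-1 and lag-1, against 27.7%. TGGGAA was at 0 of 10, against 18%, and CTGCGTCT at 0 of 10, against 3.54%. The GA repeat was at 1 of 10, aph-1, against 3.54%.

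**Figure D5:**
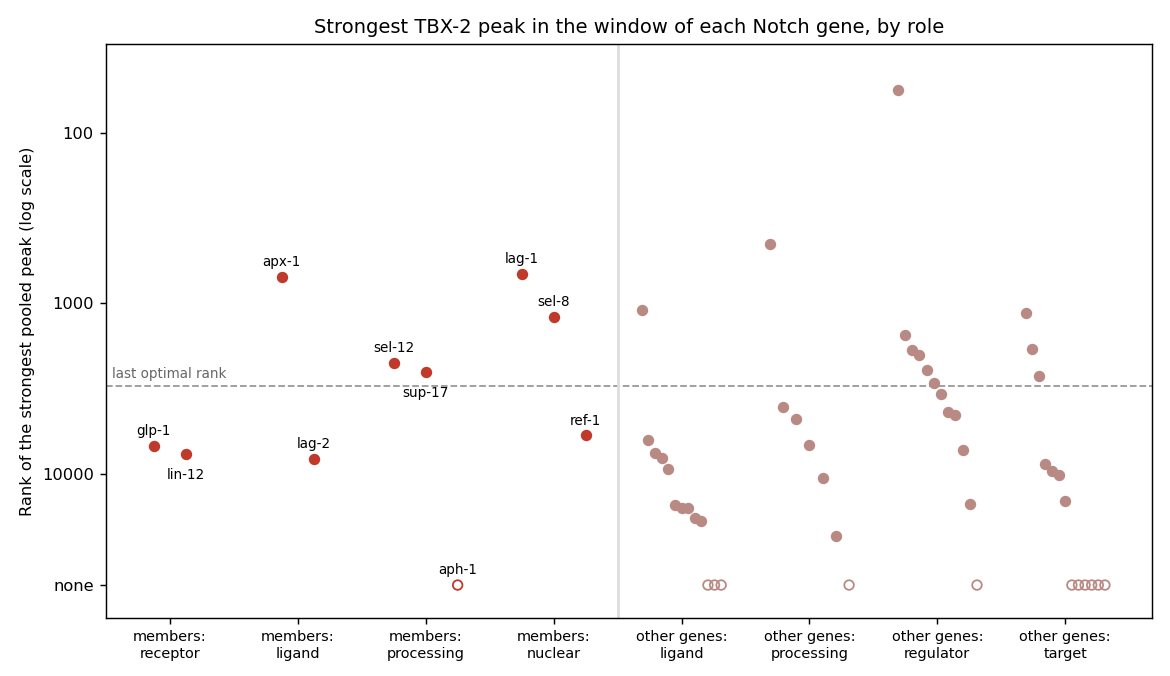
Rank of the strongest pooled peak in the window of each Notch gene (y axis, log scale with the strongest at the top) by role (x axis), members on the left and 45 other Notch genes on the right, with open circles for genes with no pooled summit and a dashed line at rank 3053. Of the members, lag-1, apx-1 and sel-8 rank highest at 674, 701 and 1195, and among other genes epn-1 ranks 56.

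Other genes of the pathway were taken from a list of 45 by role, and 11 of them had an optimal summit in the window (24.4%), against 17.7% of all genes. By role these were 6 of 12 regulators, 3 of 13 targets, 1 of 13 ligands and co-ligands, and 1 of 7 processing genes. Within 1 kb of a 5′ end it was 7 of 45 (15.6%), against 11.5%. The strongest peak of the pathway was at epn-1, which encodes epsin, an endocytic adaptor. It lay at -461 bp with a signal of 446 and rank 56, and ranked 58 and 61 in replicates 1 and 2. The ADAM17-like protease gene adm-4 had a peak at -247 bp with a signal of 227, rank 445, and ranks of 472 and 432. In the optimal set both ranked above every peak of the 10 members, whereas in replicate 2 the lag-1 peak in intron 1, at rank 352, stood above that of adm-4.

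Peaks of intermediate rank lay at dos-1, vav-1 and sel-2. The co-ligand gene dos-1 ranked 1100 (915 and 1524 in the replicates), with its summit 301 bp inside the gene. vav-1, one of the genes listed as targets, ranked 1144 (944 and 1353), at -200 bp from an inner 5′ end. sel-2, a gene for a BEACH protein of endosomal traffic, ranked 1540 (2063 and 1258) at -459 bp. The lateral signal target lst-4 ranked 1863 (3682 and 1096), the zinc finger repressor gene spr-3 ranked 1869 (1673 and 2250) and the ubiquitin ligase gene sel-11 ranked 1995 (2989 and 1584). The lst-4 and sel-11 summits were nearer to the 5′ ends of ccar-1 and F55A11.1. The F-box gene sel-10, the EVI1-type factor gene egl-43 and the CoREST gene spr-1 also had one, and the spr-1 summit was nearer to snap-1. egl-43 ranked 2183 in replicate 1 and 6900 in replicate 2.

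Notch target genes of the REF-1 family other than ref-1 had no peak. hlh-25, hlh-26, hlh-27, hlh-28 and hlh-29 had no summit in any of the 4 lists, which also held for 27.6% of all protein-coding genes. The windows of hlh-25 and hlh-26 overlap, as do those of hlh-28 and hlh-29, so these genes are not separate cases. Of the 31-base words in the windows of these hlh genes, from 27.9% at hlh-28 and hlh-29 to 74.8% at hlh-25 occur once in the genome. How the authors treated reads that match several places is not given in the sources used here. The part of repeated sequence in these empty windows was not tested. Outside this family, the Notch gene windows below 74.8% were those of dsl-6 (44.8%), dsl-3 (58.7%) and sygl-1 (66.9%), none as low as 27.9%. dsl-6 had no summit in any of the 4 lists, and dsl-3 and sygl-1 each had 1 pooled summit. In the ref-1 window 100% of words occur once. The germline targets lst-1 and sygl-1 had pooled summits of rank 14373 and 10225, and none in the optimal set. In replicate 2 a peak at lst-1 ranked 2687, inside the top list, and its best in replicate 1 ranked 20388.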

How the data were processed

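TBX-2 ChIP-seq peaks from 2 biological replicates of 1 group were analysed. Per the labels' accompanying file lists, the authors called relaxed peaks per replicate and from pooled alignments, against a control, and thresholded them on the irreproducible discovery rate. Read depth is unknown, and of the aligner, the caller and that threshold nothing is given in the sources used here. Each deposited list gives a signal per peak, the authors' own value. The authors also deposited a −log10 q-value per peak, which was 2.98 in every optimal member peak. This is the highest value in the optimal and pooled lists, so it does not set these peaks apart. Peaks were ranked by signal within a list, and signals were not averaged between lists.

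Lists on ce11 were used and those on ce10 were not. Gene models came from Ensembl release 115 (WBcel235) and sequence from RefSeq. Summits were assigned, distances measured and motifs counted in Python 3.11.15, steps that were tested on simulated data. A replicate peak met a pooled peak when they overlapped by at least 1 bp. The same replicate peak could meet more than 1 pooled peak, so counts of met summits are not counts of separate replicate peaks. A peak could count for several genes. Of 46 symbols of other Notch genes 1, lst-3, was not found.

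The text names all 10 members, genes nearer to or holding a named member summit, other Notch genes with an optimal summit (the 8 strongest with values) and tbx-2. The hlh genes of the REF-1 family, sel-10, egl-43 and spr-1 with their details, dsl-3, dsl-6, lst-1 and sygl-1 go beyond this rule and were chosen after their values were seen. The members and lists were chosen with earlier results of these data known. The alternatives were other reaches, overlaps, assignments, stronger peaks and each replicate alone.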

Additional observations from a re-analysis of the deposited data

How the results depend on the processing

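Of the 10 members, 5 kept an optimal summit in the window with a reach of 1 or 5 kb, with any base of the peak, and with each peak given to the nearest 5′ end of a protein-coding gene; shares of all genes were then 12.6%, 21.9% and, for the nearest 5′ end, 10.9%. Noncoding RNAs had nearer 5′ ends at sup-17, lag-1 and sel-8. With peaks in both top lists it was 4 members, against 14.3% of genes. With the 1527 strongest optimal peaks 3 members and 3 peaks were left, against 10.4% of genes, and with the 500 strongest 0 and 0. Within 1 kb of a 5′ end the count of 3 fell to 1 and 0 in the same settings. The share of all genes was not counted with any base of the peak, with the 500 strongest peaks, or within 1 kb for stronger peaks. Counts in those settings, here and for other Notch genes, therefore stand without a comparison. Among other Notch genes the count of 11 in the window was 15 with 5 kb upstream, 7 with 1 kb, 7 with peaks in both top lists (15.6%, against the same 14.3%), 4 with the 1527 strongest and 2 with the 500 strongest, and the count of 7 within 1 kb was 4 and 2. Leaving out either replicate gave 4 to 5 members and 6 to 8 peaks in the window, 2 to 3 members within 1 kb, and 8 to 11 and 6 to 7 other Notch genes. Motif counts, other than that of GGTGTGA, rose with the stretch searched, as did the shares of all nuclear optimal peaks. Within 100 bp and in the whole peak GGTGT was in 3 of 7 peaks, against 33.0% and 46.2%. The LAG-1 site was in 3, against 6.43% and 12.5%, and TGGGAA in 3, against 10.5% and 21.1%. The GA repeat was in 2, against 15.8% and 20.5%. The GC-box was in 1 and 2, against 12.8% and 17.7%, and CTGCGTCT in 0 and 1, against 16% and 18.9%. The wider stretch holds more letters. No paired analysis was possible because there was 1 group. Limits: 2 replicates, no untagged strain, unknown depth, and whole embryos, so that cells that make TBX-2 and cells with active Notch signalling cannot be told apart.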
